A study of Mus musculus with 8 samples.

Results

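The miR-29 family was followed in the culture medium of mouse muscle cells. Its members were taken by name from the array files, as the 3 mature miRNAs mmu-miR-29a-3p, mmu-miR-29b-3p and mmu-miR-29c-3p (written here without the species prefix) out of 1881 mouse miRNAs on the array, with no threshold on a measured value; earlier results of these data were known when the family was picked. All 3 were among the 538 miRNAs detected on at least 2 of the 8 arrays, the set that was tested; miR-29c-3p entered that set only through 2 arrays of 1 group. The 4 miRNAs of the opposite arms of the same hairpins, miR-29a-5p, miR-29b-1-5p, miR-29b-2-5p and miR-29c-5p, were detected on 0 of 8 arrays. Of all 1881 mouse miRNAs, 1295 were likewise never detected.

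The study measured miRNAs released by primary myocytes into the medium of transwell co-cultures, with 1 single-colour Agilent mouse miRNA array per sample. In a transwell, cells in a bottom chamber and cells on an insert share medium through a membrane, here with pores of 0.4 µm, and a group is written as bottom chamber/insert. The question the design addresses is how mutant muscle cells change the secreted miRNAs, alone and beside cells without the mutation. Medium was collected at 2 days in vitro.

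G93A/G93A medium (3 arrays) came from cultures with hSOD1(G93A) cells in both chambers. Cells of this kind derive from B6SJL(Tg-SOD1*G93A)1Gur/J mice, which overexpress the G93A mutant of human SOD1 and are a model of amyotrophic lateral sclerosis (ALS). G93A/WT medium (3 arrays) came from hSOD1(G93A) cells below and hSOD1(WT) cells on the insert. WT/WT medium (2 arrays) came from hSOD1(WT) cells in both chambers, from B6SJL(Tg-SOD1)2Gur/J mice, which overexpress the wild-type human protein. Every group therefore carried a human SOD1 transgene, and non-transgenic muscle was not analysed here. All cells were taken from hind limb muscle of pups aged 1 to 3 days, tagged male, whose colonies were kept by crossing hemizygous males to wild-type B6SJLF1/J females. The opposite mixed co-culture, with the mutant cells on the insert, was not analysed here.

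Within a cell, a miRNA is loaded into an Argonaute protein and guides it to messenger RNAs through its seed, the short stretch near its 5′ end. The miR-29 family is best known for repressing collagens and other genes of the extracellular matrix, so that it restrains fibrosis, and for repressing DNA methyltransferases. In skeletal muscle it rises as myoblasts differentiate and promotes that step, and it has been studied in ALS. What extracellular miR-29 does in muscle is less well settled.

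The mature sequences are shown because the members differ so little that the seed and the few differing bases decide what an array probe can tell apart. They are RefSeq sequences (GRCm38.p6, 7 of 7 names of both arms matched), written 5′ to 3′, with the seed (bases 2 to 8) in capitals.
miR-29a-3p: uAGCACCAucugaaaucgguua
miR-29b-3p: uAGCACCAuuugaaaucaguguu
miR-29c-3p: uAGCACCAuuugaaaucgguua
The seed was the same in all 3. Of the 1608 array miRNAs with a RefSeq sequence, these 3 alone carried it at bases 2 to 8, and 5 held the same letters anywhere, the others being miR-770-5p and miR-3547-3p. Counting positions from 1 at the 5′ end, miR-29c-3p differed from miR-29a-3p by C10U alone (21 of 22 bases identical). miR-29b-3p differed from miR-29a-3p by C10U, G18A, U21G and A22U (18 of 22 identical) and was 1 base longer. Against miR-29c-3p it differed by G18A, U21G and A22U (19 of 22 identical). In human cells the 3′ end of miR-29b has been described as directing it to the nucleus, and the uridines in the middle of miR-29b and miR-29c as speeding their decay. A probe for one member may bind another that differs from it by so little, and whether it did was not tested.

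The 3 members come from 4 hairpins in 2 pairs, with miR-29b-3p encoded in each pair. The hairpins are shown with the 5p arm and then the 3p arm in capitals, since only 3p arms were detected.
Mir29a: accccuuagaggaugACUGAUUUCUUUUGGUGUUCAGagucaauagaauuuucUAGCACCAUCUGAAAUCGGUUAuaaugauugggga
Mir29b-1: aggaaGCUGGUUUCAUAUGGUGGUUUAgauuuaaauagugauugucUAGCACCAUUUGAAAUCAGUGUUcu
Mir29b-2: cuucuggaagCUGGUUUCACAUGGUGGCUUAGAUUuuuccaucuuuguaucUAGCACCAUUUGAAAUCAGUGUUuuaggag
Mir29c: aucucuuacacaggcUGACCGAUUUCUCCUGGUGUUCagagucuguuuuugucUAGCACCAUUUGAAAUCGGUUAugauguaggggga
Mir29a lies at chr6:31062660-31062747 and Mir29b-1 at chr6:31063023-31063093, both on the minus strand, with 275 bases between them. Neither overlapped another gene in the RefSeq annotation. Mir29b-2 lies at chr1:195037040-195037120 and Mir29c at chr1:195037547-195037634, both on the plus strand and 426 bases apart, inside the long non-coding RNA gene A330023F24Rik. Because both loci encode the same mature miR-29b-3p, its signal cannot be assigned to either of the 2 loci.

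The arrays detected 451 to 483 mouse miRNAs in G93A/G93A medium, 497 to 563 in G93A/WT medium and 450 to 461 in WT/WT medium, and 423 were detected on all 8. Each array was scaled to an equal 75th percentile over those 423. The scale factor, which is smaller for a brighter array, was 0.973 to 1.31 in G93A/G93A, 0.593 to 0.933 in G93A/WT and 1.13 to 1.44 in WT/WT, so the G93A/WT arrays were the brightest. All arrays lay on 1 slide, with WT/WT 1 and the G93A/WT arrays in row 1, and WT/WT 2 and the G93A/G93A arrays in row 2. Of 6 skeletal muscle miRNAs, 4 were detected in every sample, with summed scaled signals of 4094 to 5063 in G93A/G93A, 4341 to 5258 in G93A/WT and 4522 to 5194 in WT/WT. The medium held bovine or horse serum, whose miRNAs of the same sequence give the same signal, and medium without cells was not analysed here.

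miR-29a-3p, the member whose hairpin is on chromosome 6 alone, was detected on all 8 arrays. Its scaled signal was 86.7, 76.9 and 75.6 units in G93A/G93A medium, 79.1, 110 and 99.5 units in G93A/WT medium, and 102 and 115 units in WT/WT medium. Every G93A/G93A array lay below both WT/WT arrays, while the G93A/WT arrays spread over the range of both other groups. Before scaling the signals were 74.9, 58.7 and 77.6 units in G93A/G93A, 84.9, 185 and 132 units in G93A/WT, and 71.1 and 102 units in WT/WT. Without scaling, then, the G93A/G93A arrays fell around WT/WT 1 and the G93A/WT arrays reached the highest values. Each of the 8 signals was 10.3 to 12.3 times its own error, so the measurement itself was well above background. The SD of miR-29a-3p within groups, 0.18 on the log2 scale, was close to the median of 0.17 over the 423 miRNAs detected everywhere.

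miR-29b-3p, the member encoded at both loci, was dim and was detected on 6 of 8 arrays. In G93A/G93A medium 1 of 3 arrays detected it, at 3.90 scaled units, and arrays 1 and 2 did not. It reached 4.54, 5.77 and 5.59 scaled units in G93A/WT medium and 4.23 and 3.84 in WT/WT medium. All 3 G93A/WT arrays were above the other 5, and the 1 detected G93A/G93A value lay between the 2 WT/WT values. The unscaled signals were 4.01 units on the detecting G93A/G93A array, 4.87, 9.74 and 7.40 units in G93A/WT, and 2.94 and 3.40 units in WT/WT. An array counted a miRNA as detected only where the signal exceeded 3 times its error, which for miR-29b-3p meant 2.83 to 4.22 unscaled units on the 6 arrays. WT/WT 1, at 3.12 times its error, was thus only just detected.

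miR-29c-3p, from the chromosome 1 pair, was detected on G93A/WT arrays 2 and 3 alone, at 6.19 and 2.62 scaled units (10.4 and 3.46 unscaled). It was not detected on G93A/WT 1, on any G93A/G93A array or on either WT/WT array. G93A/WT 3 stood at 3.27 times its error, G93A/WT 2 at 6.49 times. Those 2 arrays had the smallest scale factors, 0.593 for G93A/WT 2 and 0.755 for G93A/WT 3. Detection on exactly these 2 arrays was shared by 14 of the 30 miRNAs detected on exactly 2 arrays (46.7%), and G93A/WT 2 was 1 of the 2 arrays for 29 of the 30. Array brightness therefore moved with the detection of miR-29c-3p, and its part was not tested.

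**Figure D1:**
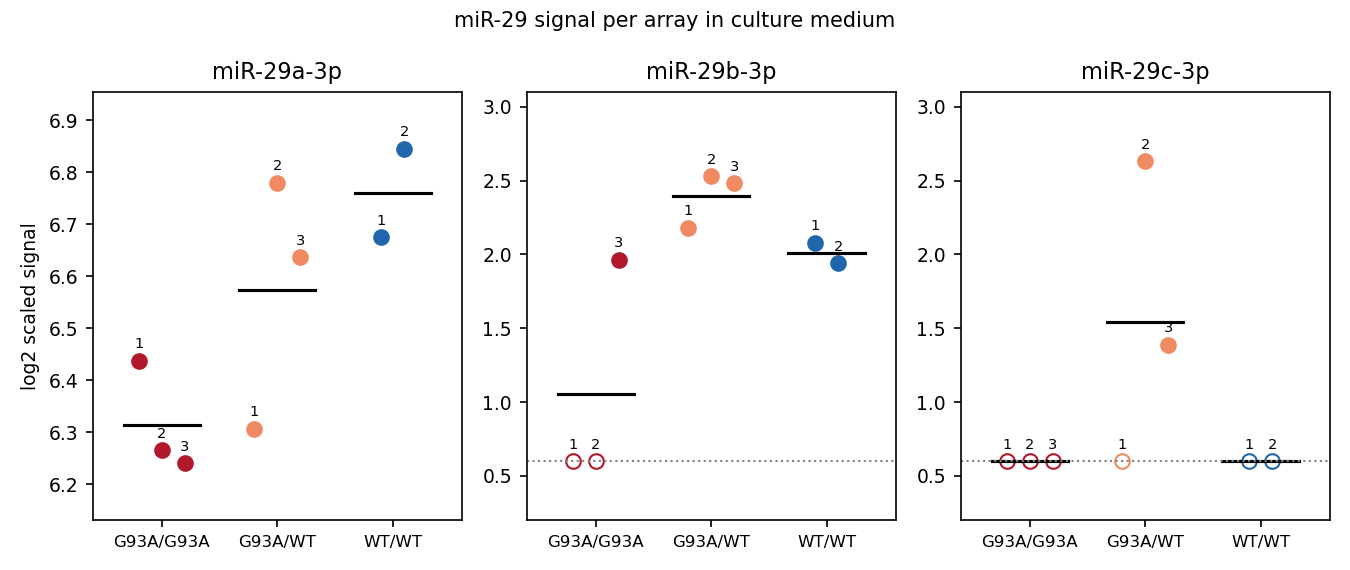
The log2 scaled signal (vertical axis) of miR-29a-3p, miR-29b-3p and miR-29c-3p on each array, grouped along the horizontal axis as G93A/G93A, G93A/WT and WT/WT and numbered by replicate. Filled points were detected, open points were undetected and are drawn at the floor of 0.60 (dotted), and bars are group means; the vertical scale of miR-29a-3p differs from the other 2. The G93A/G93A points of miR-29a-3p, 6.24 to 6.44, all lie below the WT/WT points at 6.68 and 6.85.

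**Figure D2:**
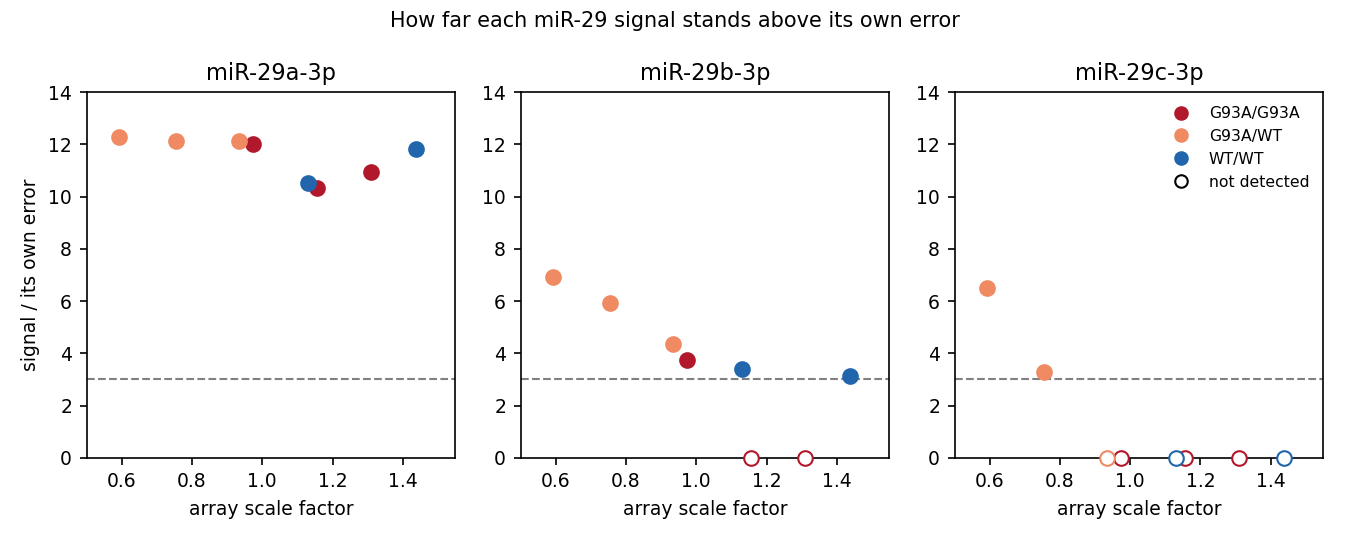
Signal divided by its own error (vertical axis) against the array's scale factor (horizontal axis, smaller for a brighter array) for each member, coloured by group. Open points were not detected and are drawn at 0, since no signal is given for them, and the dashed line marks 3 errors. miR-29a-3p stayed at 10.3 to 12.3 on every array, while miR-29b-3p ran from 6.92 on the brightest array, G93A/WT 2, to 3.12 on WT/WT 1.

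For the tests, undetected values were set to a floor of 1.52 scaled units (log2 0.60), and differences are on the log2 scale with limma's standard error. An adjusted p is corrected over all 538 tested miRNAs, and the call is at 0.05. None of the 3 members passed in any of the 4 comparisons in limma at this setting.

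Between G93A/G93A and WT/WT media miR-29a-3p was lower in every mutant array, by less than the test could call. Its log2 signal was 6.31 ± 0.11 in G93A/G93A (SD, n = 3) and 6.76 ± 0.12 in WT/WT (SD, n = 2). The difference was −0.45 ± 0.16 (SE), a ratio of 0.734, with a 95% interval of −0.83 to −0.06, an unadjusted limma p of 0.0279 and an adjusted p of 0.135. miR-29b-3p averaged 1.06 ± 0.79 in G93A/G93A, with 2 arrays at the floor, and 2.01 ± 0.10 in WT/WT. Its difference was −0.96 ± 0.41 (SE), with an interval of −1.92 to 0.01 and a limma adjusted p of 0.19. miR-29c-3p was undetected in both groups, so no difference is given for it.

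In this comparison 0 of 3 members passed in limma and 1 had an unadjusted p under 0.05, against 8.55% of all tested miRNAs that passed (3.72% above and 4.83% below WT/WT) and 26.6% with an unadjusted p under 0.05. miR-29c-3p, at the floor on all arrays of both groups, could not pass here. The groups did not overlap for 1 member, miR-29a-3p, as for 40.7% of all tested miRNAs. The median difference over all 538 was −0.01. A block on slide row, which compares G93A/G93A with WT/WT 2 alone, gave a difference of −0.53 for miR-29a-3p (limma adjusted p = 0.272) and of −0.89 for miR-29b-3p (limma adjusted p = 0.461), and a fit within row 2 gave the same differences.

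The size of the miR-29b-3p difference rested on how undetected arrays were valued. When each undetected array was instead set at the member's own detection limit, its difference shrank to −0.15 ± 0.15 (SE, limma adjusted p = 0.623). Without G93A/G93A 3, the array that detected it, the difference grew to −1.38 ± 0.15 and passed (SE, limma adjusted p = 0.0115). Both remaining G93A/G93A arrays were then at the floor and added no spread. In that fit 56 of 538 miRNAs passed, beside 46 with all arrays.

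In G93A/WT medium against WT/WT medium the members did not share a direction, and no difference exceeded its error by enough to pass. miR-29a-3p averaged 6.57 ± 0.24 in G93A/WT (SD, n = 3) and 6.76 ± 0.12 in WT/WT (SD, n = 2), a difference of −0.19 ± 0.16 (SE, interval −0.57 to 0.20, limma adjusted p = 0.477). miR-29b-3p averaged 2.40 ± 0.19 in G93A/WT and 2.01 ± 0.10 in WT/WT, a difference of 0.39 ± 0.41 (SE, interval −0.58 to 1.35, limma adjusted p = 0.563). Much of that SE came from the G93A/G93A arrays, since a fit on these 2 groups alone gave an SE of 0.14 for the same difference (limma adjusted p = 0.169).

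For miR-29c-3p, undetected in WT/WT, the fit gave 0.94 ± 0.51 (SE, interval −0.26 to 2.14, limma adjusted p = 0.283). It was tested only because G93A/WT arrays detected it, with WT/WT wholly at the floor, so the direction at the floor was fixed in advance. No fold is given for it, because detection is judged per miRNA: at its own limit the WT/WT arrays would stand at up to 2.19 on the log2 scale, and the difference turned to −0.16 (limma adjusted p = 0.813). In this comparison 0 of 3 members passed in limma and 0 had an unadjusted p under 0.05, against 3.9% (3.16% higher and 0.743% lower in G93A/WT) and 24.5% of all tested miRNAs. The groups did not overlap for miR-29b-3p, as for 45.4% of all tested miRNAs. Blocked by slide row, or within row 1 against WT/WT 1 alone, the differences were −0.10 for miR-29a-3p, 0.32 for miR-29b-3p and 0.94 for miR-29c-3p.

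Between G93A/G93A and G93A/WT media miR-29b-3p gave the lowest adjusted p of any member. The difference was −1.34 ± 0.36 (SE, interval −2.21 to −0.48), with an unadjusted limma p of 0.00787 and an adjusted p of 0.0642. Every G93A/G93A array was below every G93A/WT array. miR-29a-3p differed by −0.26 ± 0.14 (SE, interval −0.60 to 0.08, limma adjusted p = 0.25), and its groups overlapped through G93A/WT 1. miR-29c-3p, undetected in G93A/G93A, differed by −0.94 ± 0.45 (SE, interval −2.02 to 0.14, limma adjusted p = 0.2), and by −0.01 at its own limit (limma adjusted p = 0.985). Its direction at the floor was again fixed by detection in G93A/WT alone.

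Here 0 of 3 members passed in limma and 1 had an unadjusted p under 0.05, against 10.6% (5.39% higher and 5.2% lower in G93A/G93A) and 32.2% of all tested miRNAs. The groups did not overlap for 1 member, miR-29b-3p, as for 34.8% of all tested miRNAs, whose median difference was −0.10. These 2 groups lay in different rows of the slide, so that the row block joins them only through 1 WT/WT array each, and it gave −1.20 for miR-29b-3p (limma adjusted p = 0.591) and −0.43 for miR-29a-3p (limma adjusted p = 0.597). At its own detection limit miR-29b-3p differed by −0.54 ± 0.13 (SE, limma adjusted p = 0.0562). Without G93A/G93A 3 the difference was −1.77 ± 0.13 and passed (SE, limma adjusted p = 0.00217). Both remaining G93A/G93A arrays were then at the floor and added no spread. In that fit 121 of 538 miRNAs passed, beside 57 with all arrays.

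The mixed medium was also set against the midpoint of the other groups, the mean of their 2 group means on the log2 scale. A mixture of equal parts would not lie there, since amounts add on the linear scale. The mixed culture was not of equal parts either, with cell numbers of 2.5 in the bottom chamber to 1.5 on the insert. miR-29a-3p lay at the midpoint within error, at 0.04 ± 0.13 (SE, interval −0.27 to 0.34, limma adjusted p = 0.839). miR-29b-3p lay above it by 0.87 ± 0.33 (SE, interval 0.09 to 1.64, limma adjusted p = 0.143), and miR-29c-3p by 0.94 ± 0.41 (SE, interval −0.03 to 1.91, limma adjusted p = 0.179). For both, arrays at the floor pull the midpoint down, and for miR-29c-3p this fixed the direction in advance. At the own detection limits these values were 0.46 (limma adjusted p = 0.0779) for miR-29b-3p and −0.08 (limma adjusted p = 0.851) for miR-29c-3p. In limma 0 of 3 members passed and 1 had an unadjusted p under 0.05, against 7.43% (3.35% higher and 4.09% lower in G93A/WT) and 28.8% of all tested miRNAs. Without G93A/G93A 3, miR-29b-3p passed at 1.08 (limma adjusted p = 0.00417), again with both remaining G93A/G93A arrays at the floor. In that fit 82 of 538 miRNAs passed, beside 40 with all arrays.

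**Figure D3:**
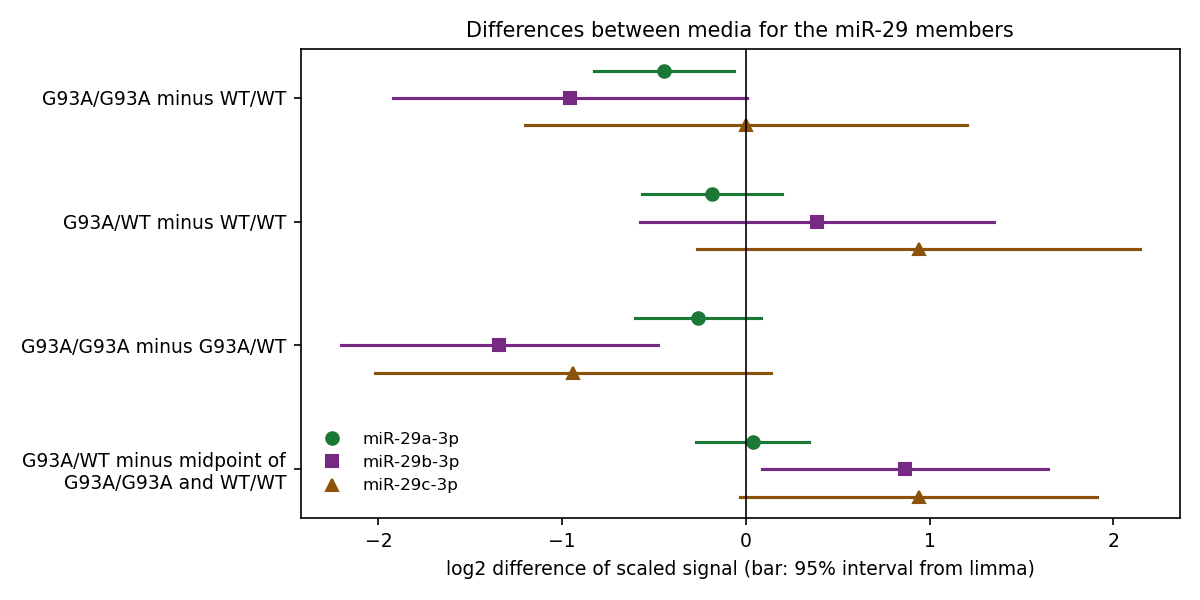
The log2 difference of scaled signal (horizontal axis) of each member in the 4 comparisons (vertical axis), with the 95% interval from limma as a bar. The intervals of miR-29a-3p in G93A/G93A minus WT/WT, and of miR-29b-3p in G93A/G93A minus G93A/WT and against the midpoint, leave out 0 before adjustment over all tested miRNAs.

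The authors' deposited table of processed values listed miR-29a-3p and miR-29b-3p. For miR-29a-3p it gave 93.2, 76.3 and 77.3 units in G93A/G93A, 78.4, 110 and 102 units in G93A/WT, and 94.6 and 112 units in WT/WT, an order close to that of the scaled signals. For miR-29b-3p it gave 0.268, 0.295 and 5.87 units in G93A/G93A, 4.74, 1.18 and 3.46 units in G93A/WT, and 3.69 and 4.24 units in WT/WT. The order within groups was not that of the array signals: G93A/WT 2, the brightest array for miR-29b-3p at 9.74 units, was the lowest of its group in that table, and G93A/G93A 3 was the highest of all 8. With those values the difference of miR-29b-3p between G93A/WT and WT/WT turned to −0.56 ± 1.41 (SE, limma adjusted p = 0.799), and no difference of miR-29a-3p or miR-29b-3p passed in limma. How that table was normalized is not given in the sources used.

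**Figure D4:**
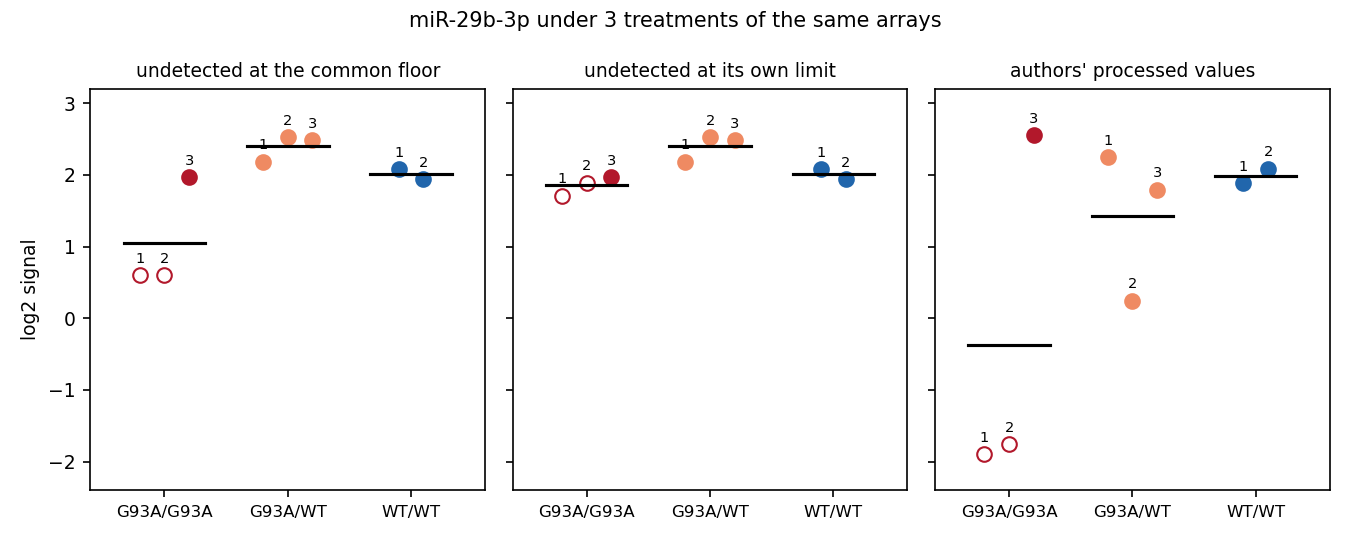
The log2 signal of miR-29b-3p (vertical axis) on each array, numbered by replicate and grouped as G93A/G93A, G93A/WT and WT/WT, under 3 treatments: undetected arrays at the common floor, undetected arrays at the member's own detection limit, and the authors' processed values. Open points were undetected in the array files and bars are group means. The mean of G93A/G93A lies at 1.06 on the left, and the 2 undetected arrays move to 1.71 and 1.89 at their own limit, beside 1.97 on the detecting array.

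Differences between 2 members on the same array do not depend on the scale factor where the array detected both, but they depend on the floor where it did not. miR-29a-3p minus miR-29b-3p was 5.84, 5.67 and 4.27 in G93A/G93A, 4.12, 4.25 and 4.15 in G93A/WT, and 4.59 and 4.90 in WT/WT, all on the log2 scale. These numbers compare 2 different probes, so only their change between groups can be read. The spread was narrow in G93A/WT (SD 0.07), and the 2 highest values came from the 2 arrays with miR-29b-3p at the floor. The difference changed by −0.57 between G93A/WT and WT/WT, whose 5 arrays all detected both, with no overlap between the groups. An exact permutation test could not call this change, since its 2-sided p of 0.2 (adjusted 0.467 over 7 tests) is the smallest these group sizes allow. In the authors' deposited table the same change was 0.46. Between G93A/G93A and G93A/WT the difference was 1.08 higher, and its exact p of 0.1 (adjusted 0.467) is again the smallest possible. These groups did not overlap, but the lowest G93A/G93A value, 4.27, lay just above the highest G93A/WT value, 4.25. The other 2 G93A/G93A values had miR-29b-3p at the floor. The share of other miRNA pairs without overlap was not counted. Between G93A/G93A and WT/WT the difference was 0.51 higher (exact p = 0.6, adjusted 0.7).

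Between G93A/G93A and WT/WT the pairs with miR-29c-3p have no value, since neither group detected it. In the other comparisons 1 whole group stood at the floor for it. There miR-29a-3p minus miR-29c-3p changed by 0.68 (G93A/G93A minus G93A/WT) and −1.13 (G93A/WT minus WT/WT), and miR-29b-3p minus miR-29c-3p by −0.40 and −0.55 in the same order. No exact p of these 4 was below 0.2, and the smallest the design allows is 0.1 for 3 against 3 arrays and 0.2 for 3 against 2.

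Across the 8 arrays the log2 signals of miR-29a-3p and miR-29b-3p correlated at r = 0.489 (exact permutation p = 0.254), with a Spearman rho of 0.335 (exact p = 0.41). This was the 1 pair tested, since miR-29c-3p was detected on 2 arrays. Without the 2 arrays farthest from the median of miR-29a-3p, WT/WT 2 and G93A/G93A 3, r was 0.666 (exact p = 0.183), and on the 6 arrays that detected both it was 0.271 (exact p = 0.593). The same pair gave r = 0.868 without any scaling (exact p = 0.00481), where both members carry the brightness of their array, and 0.64 (exact p = 0.181) when G93A/WT 2 and G93A/WT 3 were left out. Within groups, as deviations from the group means, the scaled values gave r = −0.05.

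The miRNAs whose pattern was most like each member's were picked by Pearson's r of log2 scaled signal over the 8 arrays, among the 422 other miRNAs detected on all of them, and are given as a description. Closest to miR-29a-3p were miR-99b-5p (r = 0.927), miR-532-5p (0.903) and miR-24-3p (0.882), and the most opposed were miR-3093-3p (−0.893), miR-7226-5p (−0.869) and miR-28a-3p (−0.864). The log2 signal of miR-99b-5p was 4.05, 3.88 and 3.95 in G93A/G93A, 4.12, 4.51 and 4.30 in G93A/WT, and 4.69 and 4.84 in WT/WT, the same order of group means as for miR-29a-3p. Within groups the r with miR-29a-3p was 0.949 for miR-99b-5p, 0.787 for miR-532-5p and 0.676 for miR-24-3p. These deviations are part of the r used for the pick, so they are no separate support.

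Closest to miR-29b-3p were miR-10a-5p (r = 0.978), miR-34a-5p (0.963) and miR-425-5p (0.947), and the most opposed were miR-6973b-5p (−0.949), miR-7047-5p (−0.937) and miR-7011-5p (−0.928). miR-34a-5p, a target of p53 that is known to promote fibrosis, had a log2 signal of 2.89, 3.08 and 3.79 in G93A/G93A, 3.90, 4.08 and 4.06 in G93A/WT, and 4.06 and 4.04 in WT/WT. miR-10a-5p, encoded in a Hox cluster, stood at 3.04, 3.08 and 3.65 in G93A/G93A, 4.06, 4.20 and 4.12 in G93A/WT, and 3.99 and 3.74 in WT/WT. Both were measured on every array, and in both G93A/G93A 1 and 2 were the lowest arrays and G93A/G93A 3 lay nearer the other groups, the arrangement seen for miR-29b-3p. They were selected for that likeness.

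Closest to miR-29c-3p, whose pattern is that of 2 arrays, were miR-503-5p (r = 0.904), miR-106b-5p (0.869) and miR-362-3p (0.85), and the most opposed were miR-211-3p (−0.795), miR-8110 (−0.778) and miR-3960 (−0.772). The log2 signal of miR-503-5p, which promotes cell cycle exit in myoblasts, was 3.38, 3.69 and 3.46 in G93A/G93A, 3.61, 4.17 and 3.90 in G93A/WT, and 3.63 and 3.63 in WT/WT, highest on G93A/WT 2 and 3. For the mean of the 3 members, the closest were miR-152-3p (0.944), miR-210-3p (0.911) and miR-99a-5p (0.905), and the most opposed miR-3547-5p (−0.917), miR-6934-5p (−0.868) and miR-7068-5p (−0.865). Of these, miR-152-3p represses a DNA methyltransferase, as the miR-29 family does.

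Other miRNAs with the roles for which miR-29 is known were counted from lists drawn from general knowledge, and some stand on more than 1 list. Of 14 miRNAs known to restrain fibrosis, 13 were tested, and 2 fell and none rose in G93A/G93A against WT/WT (median −0.22, beside −0.01 over all tested, of which 4.83% fell and 3.72% rose). Both, miR-200b-3p and miR-200c-3p of the miR-200 family, were undetected on every G93A/G93A array (limma adjusted p = 0.0143 and 0.00306, with those arrays at the floor). Against the detection limit estimated from their own errors they were at least 1.64-fold and at least 1.37-fold lower, and at that limit neither passed (limma adjusted p = 0.176 and 0.193). Among the other 11, miR-133a-3p stood at 0.18 ± 0.39, miR-15b-5p at −0.31 ± 0.18 and miR-16-5p at −0.12 ± 0.14 (SE, limma adjusted p = 0.829, 0.304 and 0.66). Against G93A/WT 3 fell and none rose (median −0.40, with 5.2% lower over all tested), the same miR-200 pair and miR-26a-5p (−0.62 ± 0.14, SE, limma adjusted p = 0.0285), which restrains fibrosis and promotes muscle differentiation. With undetected miRNAs at their own limit 0 passed against WT/WT in limma (4 with an unadjusted p under 0.05) and miR-26a-5p alone fell against G93A/WT. Over all 538 tested, 20 fell against WT/WT and 10 against G93A/WT at the own limits. When the slide row was a block, 2 fell against WT/WT and 0 passed against G93A/WT in limma (2 with an unadjusted p under 0.05), beside 6 and 0 of all tested. The shares of all tested with an unadjusted p under 0.05 were not counted for these settings.

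Of 10 miRNAs known to promote fibrosis, 8 were tested, and 1 fell and none rose in G93A/G93A against WT/WT (median −0.31, beside the same 4.83% lower over all tested). It was miR-199a-5p, a miRNA of mesenchymal cells (−0.85 ± 0.17, SE, limma adjusted p = 0.0291), and it did not pass when the slide row was a block. All 8 lay below zero, among them miR-155-5p at −0.10, miR-199b-5p at −0.11 and miR-214-3p at −0.37, which did not pass (limma adjusted p = 0.588, 0.961 and 0.108). So did 11 of the 13 tested that restrain fibrosis, and the share of all tested below zero was not counted. Against G93A/WT none of the 8 passed in limma and 4 had an unadjusted p under 0.05, as had 32.2% of all tested miRNAs (median −0.54, beside −0.10 over all tested). miRNAs that restrain and that promote fibrosis thus had medians on the same side of zero in both comparisons.

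Of 16 miRNAs known to promote muscle differentiation, 14 were tested, and 2 fell and none rose in G93A/G93A against WT/WT (median −0.30, with 4.83% lower over all tested). miR-181a-5p was undetected in G93A/G93A (limma adjusted p = 0.000891 at the floor). Against its own estimated limit it was at least 1.67-fold lower and still passed (limma adjusted p = 0.0407). The other, miR-378a-3p, which counters an inhibitor of MyoD, differed by −0.65 ± 0.15 (SE, limma adjusted p = 0.0433). Of the muscle-specific miRNAs, miR-133a-3p stood at 0.18, miR-133b-3p at 0.25, miR-1a-3p at 0.08 and miR-206-3p at −0.27, and none of these 4 passed (limma adjusted p = 0.829, 0.483, 0.817 and 0.351). Against G93A/WT 2 fell, miR-181a-5p (limma adjusted p = 0.00093) and miR-26a-5p (median −0.32, with 5.2% lower over all tested). At its own limit miR-181a-5p did not pass there (−0.23, limma adjusted p = 0.335). When the slide row was a block, 1 fell against WT/WT and 0 passed against G93A/WT in limma, beside 6 and 0 of all 538 tested. Against G93A/WT an unadjusted p under 0.05 was reached by 3 with the block. Without the block it was reached by 5 of 14, and by 32.2% of all tested. The share of all tested with the block was not counted.

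Of miR-148a-3p, miR-148b-3p and miR-152-3p, relatives that repress a DNA methyltransferase, the first and last were tested and neither passed. miR-148a-3p stood at −0.07 ± 0.23 and miR-152-3p at −0.31 ± 0.20 in G93A/G93A against WT/WT, and at −0.61 ± 0.20 and −0.62 ± 0.18 against G93A/WT (SE, limma adjusted p = 0.909, 0.372, 0.0938 and 0.0755). In G93A/WT against WT/WT, and against the midpoint, none of the members of these 4 lists passed in limma. Between G93A/WT and WT/WT an unadjusted p under 0.05 was reached by 1 of 13 that restrain fibrosis, 0 of 8 that promote it, 3 of 14 of muscle differentiation and 1 of 2 of the methyltransferase list, beside 24.5% of all tested miRNAs. Against the midpoint the counts were 4, 1, 2 and 2 in the same order, beside 28.8%. Their medians between G93A/WT and WT/WT were 0.13 for restraining fibrosis, 0.04 for promoting it, 0.00 for muscle differentiation and 0.43 for the methyltransferase list, beside 0.04 over all tested miRNAs.

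Markers of other cell types were followed beside the miR-29 members, none of which passed. The 1 tested marker each of endothelium, erythroid cells and neural cells passed in no comparison in limma. On these lists 1 of 2, 2 of 3 and 4 of 5 markers, in the same order, were never detected. Of 4 leukocyte markers 3 were never detected, both arms of miR-142a and miR-150-5p. The remaining one, miR-223-3p, rose in G93A/G93A against WT/WT (0.52 ± 0.12, SE, limma adjusted p = 0.0433), as did 3.72% of all tested. With undetected miRNAs at their own limit its limma adjusted p was 0.0629. miRNAs of fibroblasts and mesenchyme, 5 of 7 detected in each sample, summed to 376 to 533 scaled units in G93A/G93A, 529 to 689 in G93A/WT and 566 to 572 in WT/WT, and both arms of miR-145a were undetected throughout. Of the 5 tested, 1 fell in G93A/G93A against WT/WT, beside 4.83% of all tested, and 0 passed in the other comparisons (limma). Epithelial miRNAs, of which 0 to 1 of 7 were detected in G93A/G93A and 5 of 7 in each other sample, summed to 0 to 5.36 units in G93A/G93A, 61.2 to 85.0 in G93A/WT and 138 to 166 in WT/WT. All 5 tested epithelial markers fell in G93A/G93A against each other medium with undetected arrays at the floor, beside 4.83% (WT/WT) and 5.2% (G93A/WT) of all tested. Of these, miR-200b-3p, miR-200c-3p, miR-203-3p and miR-429-3p were undetected on every G93A/G93A array. They entered the tested set only through the other groups, and at the floor those arrays added no spread. At their own limits 3 of 5 fell against WT/WT and 1 of 5 against G93A/WT, and with the slide row as a block 4 and 0 (limma, all 5 with an unadjusted p under 0.05 in each blocked comparison). Over all 538 tested, 20 and 10 fell at the own limits, and 6 and 0 with the block. The share of all tested with an unadjusted p under 0.05 in the blocked fit was not counted. Cell numbers, release per cell and cell types cannot be told apart in medium, and the part of these markers in the miR-29 values was not tested.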

How the data were processed

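The deposited array files give, per the file headers, an intensity on a linear scale for each miRNA (total gene signal), its error and a detection flag. Undetected miRNAs stand at 0.1 in them, and the flag matched a signal above 3 times its error on every array. Per the labels' protocols, RNA from 600 µl of medium was used, and 150 ng of small RNA was labelled with Cy3. A deposited table of the authors' processed intensities of the same arrays (492 mouse miRNAs, 10 controls) served as an alternative; its normalization, and the scanner software's settings, are not given in the sources used.

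Signals were scaled to an equal 75th percentile over the 423 miRNAs detected on all 8 arrays, floored at 1.52 units (the median over arrays of the lowest detected scaled signal) and log2-transformed. Control features (21 per array) were left out. The 538 miRNAs detected on at least 2 arrays were fitted with limma 3.58.1 in R 4.3.3 (lmFit, eBayes, 1 spread for 3 groups). P-values had Benjamini-Hochberg adjustment, with a threshold of 0.05. The fit was tested on simulated data in which every miRNA was detected on every array, so undetected values were not covered. Exact permutation tests used SciPy 1.17.1. Bounds of undetected miRNAs compare the bright group's mean with the dim group at a limit of 3 times the miRNA's own lowest error where detected, scaled, or the array's lowest detected signal if higher. Within-array tests of a member undetected in both groups were left out (7 tests remained).

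Members (by name), lists and tests were chosen with earlier results of these data known. Named with values were the members, their other arms, the 3 highest and 3 lowest correlated miRNAs for each, list members that passed, and otherwise the first 3 by name detected on all arrays; miR-34a-5p, miR-10a-5p, miR-99b-5p and miR-503-5p were picked from these for their per-array values after they were seen. The series' text calls each sample a biological replicate, and names no litter, culture day or batch. The number of arrays limits the precision. Deviations of same-numbered arrays from their group means correlated at r = −0.347 to 0.211 (7 pairs). The pairs of WT/WT with G93A/WT were positive (0.151 and 0.211) and the others negative. With 2 or 3 arrays per group such deviations depend on each other, so they cannot tell whether the numbers pair samples. The arrays were treated as unpaired. Alternatives covered the scaling, floor, filter, prior, slide row, replicate number, arrays left out and the authors' values.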

Additional observations from a re-analysis of the deposited data

How the results depend on the processing

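Over 19 results on the members that have a direction (11 differences, 7 within-array differences and 1 correlation), 277 of 295 alternative values other than 0 kept direction and call, 8 gained the call and 10 changed sign. The 7 within-array differences could not gain a call, since their exact p cannot fall below 0.1. For them the count speaks of direction alone. None of the 19 results was called at the main setting, so a kept call means that it was still not called. A higher floor or another filter could not move the differences of miR-29a-3p, which was detected on every array. For miR-29c-3p the direction at the floor was fixed in advance, so its kept directions there say nothing. Without scaling, where the median of all tested miRNAs shifted to −0.68 (G93A/G93A minus G93A/WT), 0.08 (G93A/G93A minus WT/WT), 0.79 (G93A/WT minus WT/WT) and 0.73 (G93A/WT minus the midpoint), miR-29a-3p turned to 0.58 in G93A/WT minus WT/WT and passed at 0.73 against the midpoint. There miR-29b-3p passed at −1.77 (G93A/G93A minus G93A/WT) and 1.46 (midpoint) and miR-29c-3p at 1.34 (midpoint), and the correlation was 0.868. Median scaling put miR-29a-3p at −0.0578 against the midpoint. The authors' values put miR-29b-3p at −0.56 in G93A/WT minus WT/WT and miR-29a-3p minus miR-29b-3p there at 0.46. With undetected miRNAs at their own limit, an alternative chosen after seeing the data, miR-29c-3p turned to −0.16 in G93A/WT minus WT/WT and −0.0758 against the midpoint. There the within-array changes turned to −0.29 (miR-29a-3p minus miR-29b-3p, G93A/G93A minus WT/WT), −0.25 (miR-29a-3p minus miR-29c-3p, G93A/G93A minus G93A/WT) and 0.54 (miR-29b-3p minus miR-29c-3p, G93A/WT minus WT/WT). A floor 4 times higher lies above every miR-29b-3p signal and left its 4 differences at 0. The cause was not tested for the other settings.

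Leaving out 1 array at a time, miR-29b-3p ran from −1.38 to −0.72 (G93A/G93A minus WT/WT), −1.77 to −1.13 (G93A/G93A minus G93A/WT) and 0.77 to 1.08 (midpoint), passing only without G93A/G93A 3, and miR-29a-3p ran from −0.0658 (without G93A/WT 2) to 0.17 against the midpoint. Without G93A/WT 2 or 3, miR-29c-3p was detected on 1 array and was not tested. The replicate block assumes that same-numbered arrays belong together, which is not known. With it no member passed in limma, with miR-29a-3p at −0.44, −0.18, −0.26 and 0.04 and miR-29b-3p at −1.20, 0.14, −1.34 and 0.74, and 10, 8, 37 and 12 miRNAs passed in place of 46, 21, 57 and 40 (in the order G93A/G93A minus WT/WT, G93A/WT minus WT/WT, G93A/G93A minus G93A/WT, midpoint). With the slide row as a block 7, 16, 0 and 4 passed. Over all alternatives the counts ran from 7 to 56, 0 to 130, 0 to 149 and 4 to 315, the high ends of the last 3 without scaling, and when 1 array was left out from 7 to 56, 7 to 61, 37 to 121 and 23 to 82. At the own limits G93A/WT minus WT/WT had 2 calls. Scaling on all mouse miRNAs gave no usable value, since the 75th percentile was the undetected entry on 3 arrays. Signal over error limits miR-29b-3p and miR-29c-3p, and 2 or 3 arrays per group limit all members.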
